A study of Mus musculus with 66 samples.

Results

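The genes described here are 10 genes best known from neurons and growing axons, measured in mouse embryonic stem cells: Rgma, Rgmb, Neo1, Ncam1, Gap43, Tubb3, Nes, Vamp2, Olfm1 and Tspan7. They are 10 of 55487 Ensembl gene identifiers in the deposited tables, each matched to 1 identifier by its symbol, and all 10 passed the filter on low counts. They were chosen by name after results of the same RNA libraries were known, so their differences between groups are given as a description. RNA was sequenced from E14 embryonic stem cells, an established mouse line, in a study of R-loops, G-quadruplexes (folded structures of guanine-rich nucleic acid) and binding of CTCF. The wildtype group has 3 libraries, and 4 libraries share the genotype label of a G4 deletion at Praf2, where G4 stands for G-quadruplex. The titles divide those 4 into GDel1 and GDel2 with 2 libraries each. All 7 libraries come from untreated cells grown in serum with LIF, 3 µM of a GSK inhibitor and 1 µM of a MEK1/2 inhibitor. Whether GDel1 and GDel2 come from different clones, and replicates from different cultures, is not stated in the labels, so p-values measure only the spread between these libraries, which may be technical.

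Repulsive guidance molecules are surface proteins held by a lipid anchor. They bind neogenin, a transmembrane receptor of growing axons that also binds netrins, and they act as co-receptors of bone morphogenetic proteins. A growth cone at the tip of an axon reads such cues and steers by rearranging actin and microtubules, and the neuronal cytoskeleton is built from its own tubulins, microtubule-associated proteins and neurofilaments. Many of these genes are also transcribed at low levels in cells that are not neurons, embryonic stem cells among them.

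Depth ran from 12316853 to 18762704 expected counts per library. The share of counts from the mitochondrial genome was 4.83% to 9.91%, highest in GDel1 replicate 1 (9.91%) and GDel2 replicate 2 (9.60%). Praf2 itself was at 27.5 to 30.6 CPM (reads per gene scaled by the TMM library size) in wildtype, 9.26 to 10.1 in GDel1 and 13.1 to 14.1 in GDel2, so the 3 groups did not overlap. Stem cell markers were abundant in these libraries and neuron markers scarce. A list of 10 pluripotency markers summed to between 1752 and 2470 TPM (a level per length, scaled to a fixed sum) per library, led by Dppa5a and Tdgf1, with Pou5f1 at 167 to 242 TPM. A list of 13 neuron markers summed to 6.25 to 8.09 TPM in wildtype, 3.25 to 3.63 in GDel1 and 4.89 to 8.34 in GDel2. Of these, Dcx, Neurod2 and Slc17a6 were at 0 in all 7 libraries, Rbfox3 stayed at or under 0.09 TPM and Snap25 at or under 0.06 TPM. The sum rested on Syn1, with at most 5.25 TPM, and Map2, with at most 1.03 TPM. The word neuronal therefore names what the 10 genes are known for, not the cells.

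Per length, the 10 genes covered a wide range of levels in wildtype, where the median over the 15421 genes tested was 5.17 TPM. Tubb3 was highest at 16.3 TPM ± 2.22 (SD, n = 3), and Neo1 followed at 12.1 ± 1.3 with no overlap between the libraries. Vamp2 at 7.74 ± 0.564 and Ncam1 at 7.71 ± 1.04 overlapped each other. Rgma at 3.99 ± 0.581 and Rgmb at 3.19 ± 0.325 also overlapped. Nes stood alone at 1.8 ± 0.257. Olfm1 at 0.887 ± 0.154 and Tspan7 at 0.86 ± 0.131 overlapped, and Gap43 was lowest at 0.18 ± 0.052. Gap43, Olfm1 and Tspan7 thus rest on few reads, 3 to 7, 39 to 63 and 28 to 49 expected counts per wildtype library.

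Because the deletion is named for a G-quadruplex, the promoters of the members were read for that sequence pattern, spelled as 4 runs of at least 3 G with 1 to 7 bases of any kind between runs, on either strand. A RefSeq promoter table (GRCm38.p6, the assembly also called mm10) held 6 of the 10 genes: Olfm1, Nes, Tubb3, Neo1, Rgmb and Tspan7. Over the 250 bases before each start, 5483 of 32851 promoters (16.7%) held the pattern. It was present before 1 start each of Tubb3, Neo1, Tspan7 and Olfm1, and absent before the start of Nes, the 3 starts of Rgmb and the second start of Olfm1. The 4 sequences below show Tubb3, the largest rise in GDel2 among the 6, Tspan7, the largest fall in GDel1, and the receptor and ligand Neo1 and Rgmb. They are written 5′ to 3′ on the strand of the gene, with capitals marking the pattern, which reads as runs of C where it lies on the opposite strand. Tubb3 covers chr8:123411303-123411552 on the plus strand, Tspan7 chrX:10484866-10485115 on the plus strand, Neo1 chr9:59036442-59036691 on the minus strand, and the farthest upstream start of Rgmb chr17:15831247-15831496 on the minus strand.
Tubb3: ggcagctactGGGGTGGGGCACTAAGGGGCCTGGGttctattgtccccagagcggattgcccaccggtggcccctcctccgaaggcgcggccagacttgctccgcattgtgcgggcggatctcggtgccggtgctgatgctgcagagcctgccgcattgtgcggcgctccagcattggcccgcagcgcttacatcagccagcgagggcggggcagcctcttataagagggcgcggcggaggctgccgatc
Tspan7: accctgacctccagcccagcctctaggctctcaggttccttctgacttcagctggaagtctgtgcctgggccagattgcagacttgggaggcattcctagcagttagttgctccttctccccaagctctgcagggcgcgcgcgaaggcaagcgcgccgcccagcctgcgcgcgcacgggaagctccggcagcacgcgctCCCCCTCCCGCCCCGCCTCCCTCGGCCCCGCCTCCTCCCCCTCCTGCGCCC
Neo1: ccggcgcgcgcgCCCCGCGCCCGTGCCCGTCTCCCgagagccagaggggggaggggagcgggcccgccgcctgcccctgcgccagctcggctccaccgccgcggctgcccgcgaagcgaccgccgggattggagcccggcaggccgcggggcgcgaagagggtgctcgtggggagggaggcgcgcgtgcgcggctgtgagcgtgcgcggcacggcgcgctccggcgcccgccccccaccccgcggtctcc
Rgmb: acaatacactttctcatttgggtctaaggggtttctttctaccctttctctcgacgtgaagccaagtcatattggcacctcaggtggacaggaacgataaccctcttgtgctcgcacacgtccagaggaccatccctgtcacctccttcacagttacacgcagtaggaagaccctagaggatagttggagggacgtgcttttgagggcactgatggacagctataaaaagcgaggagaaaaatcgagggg
In Tubb3 the pattern covers 25 bases on the strand of the gene, at the far end of the window. In Tspan7 it covers 51 bases on the opposite strand next to the start, and in Neo1 23 bases on the opposite strand. A match describes letters only, and no structure or binding was read at these promoters here.

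Rgma and Rgmb, the repulsive guidance molecules, were both lower in GDel1 than in wildtype and lower again in GDel2. Rgma (ENSMUSG00000070509, chr7:73375520-73419899) was at 14.8, 14.8 and 14.2 CPM in wildtype, 7.16 and 8.85 in GDel1, and 4.34 and 4.55 in GDel2. The 3 groups did not overlap, and the SD between replicates was 1.19 CPM in GDel1, 0.354 in wildtype and 0.151 in GDel2. The log2 fold change was -0.86 ± 0.14 (SE) in GDel1 and -1.71 ± 0.15 in GDel2, a level 3.27-fold lower. Rgmb (ENSMUSG00000048027, chr17:15804661-15831246) was at 22.8, 23.7 and 21.8 CPM in wildtype, 15.5 and 16.0 in GDel1, and 11.1 and 12.2 in GDel2. By CPM its groups were ordered in the same way without overlap, with log2 fold changes of -0.53 ± 0.11 in GDel1, not past the threshold of an adjusted p of 0.05, and -0.96 ± 0.11 in GDel2. In RNA from a whole culture, fewer cells transcribing a gene and less RNA per cell cannot be told apart.

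The receptor Neo1 was ordered differently from its ligands. Neo1 (ENSMUSG00000032340, chr9:58874679-59036614) encodes neogenin and was at 78.5, 79.4 and 74.5 CPM in wildtype, 58.4 and 69.0 in GDel1, and 91.5 and 89.6 in GDel2. GDel1 lay below wildtype and GDel2 above it, without overlap, and GDel2 exceeded GDel1 by 0.51 ± 0.10 on the log2 scale. Against wildtype the log2 fold changes were -0.28 ± 0.10 in GDel1 and 0.23 ± 0.09 in GDel2, neither past the threshold. The value in GDel2 passed when either GDel1 library was left out of the fit.

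Ncam1 (ENSMUSG00000039542, chr9:49502129-49799393) encodes the neural cell adhesion molecule, an immunoglobulin-type protein on many cells made in several isoforms. It was at 56.3, 55.2 and 51.9 CPM in wildtype, 42.9 and 44.0 in GDel1, and 60.9 and 59.1 in GDel2, the narrowest range of the 10 genes at 0.5 on the log2 scale. GDel1 lay below and GDel2 above wildtype, with log2 fold changes of -0.32 ± 0.09 and 0.14 ± 0.08 that did not pass the threshold. GDel2 was 0.47 ± 0.09 above GDel1. The deposited effective length of Ncam1, which weights its transcripts by their estimated share, differed between groups as well. That length was 4588, 4654 and 4568 bases in wildtype, 4406 and 4236 in GDel1, and 3803 and 3627 in GDel2. GDel2 was 19.3% shorter than wildtype, and 3.22% of the genes tested had groups at least as far apart without overlap. Per gene tables do not show which transcripts make up that difference.

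**Figure D1:**
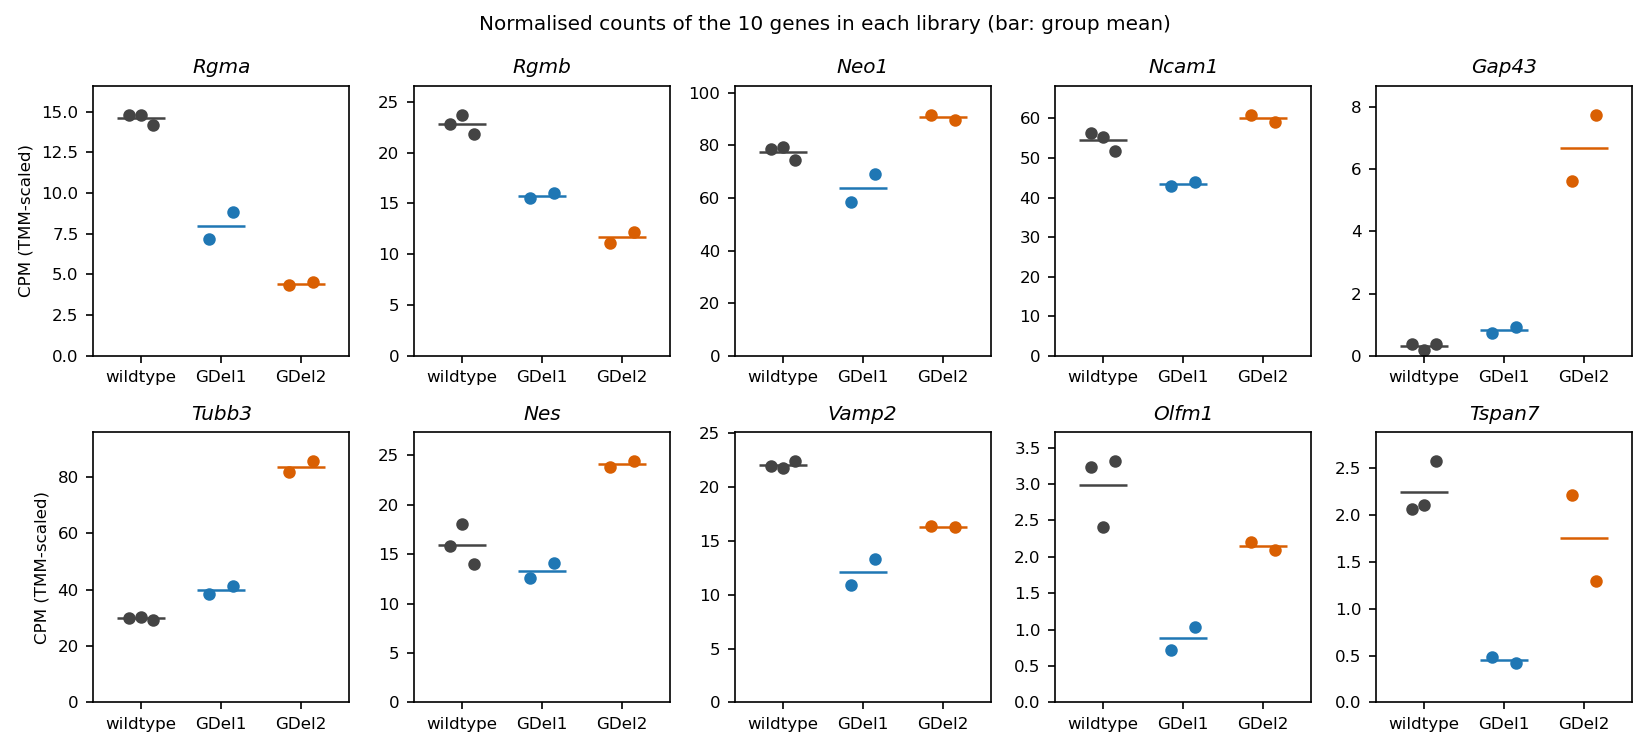
TMM-scaled counts (CPM, vertical axes, from 0) of the 10 genes in 3 wildtype, 2 GDel1 and 2 GDel2 libraries, with points for libraries and bars for group means. Rgma and Rgmb step down from wildtype to GDel1 to GDel2, Gap43 and Tubb3 are highest in GDel2 (5.60 and 7.73, 81.6 and 85.4 CPM), and Olfm1 and Tspan7 are lowest in GDel1.

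Gap43 and Tubb3, which act inside the growth cone and the axon, were highest in GDel2. Gap43 (ENSMUSG00000047261, chr16:42248552-42340651) encodes a membrane-bound protein of growth cones. It had 5, 3 and 7 expected counts in wildtype, 9 and 18 in GDel1, and 71 and 107 in GDel2. As CPM these were 0.368, 0.186 and 0.368, then 0.724 and 0.937, then 5.60 and 7.73. The 3 groups did not overlap, and GDel2 was 21.2-fold above wildtype (log2 fold change 4.41 ± 0.31), a base of at most 7 counts per library. GDel1 was 1.44 ± 0.40 above wildtype on the log2 scale, not past the threshold. Per length, Gap43 was at 4.53 and 5.72 TPM in GDel2, beside a median gene of 5.17 TPM in wildtype. Gap43 spanned the widest range of the 10 genes, 4.64 on the log2 scale.

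Tubb3 (ENSMUSG00000062380, chr8:123411553-123422015) encodes the beta-III tubulin of neuronal microtubules. It was at 29.9, 30.2 and 29.2 CPM in wildtype, 38.4 and 41.1 in GDel1, and 81.6 and 85.4 in GDel2. All GDel2 values were above all others, 2.81-fold over wildtype (log2 fold change 1.49 ± 0.08). GDel1 was above wildtype by 0.42 ± 0.09 on the CPM scale and below it by TPM, at -0.21 on the log2(TPM + 1) scale. Tubb3 lies on chromosome 8, where 362 of 712 genes tested (50.8%) were higher in GDel2 than in wildtype and 40 lower, with a median log2 fold change of 0.44. In GDel1 the median of chromosome 8 was -0.01. The part of the chromosome in the value of Tubb3 was not tested. Beta-tubulin genes are alike in sequence, and the estimate of reads shared between them carries into these values.

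Nes (ENSMUSG00000004891, chr3:87971093-87980451) encodes nestin, an intermediate filament protein of neural progenitors that other dividing cells also make. It was at 15.8, 18.1 and 14 CPM in wildtype, 12.6 and 14.1 in GDel1, and 23.8 and 24.4 in GDel2. GDel1 overlapped wildtype, and GDel2 lay above both, with log2 fold changes of 0.60 ± 0.13 against wildtype and 0.85 ± 0.15 against GDel1. Without GDel2 replicate 2 the first of these had an adjusted p of 0.0612 (edgeR).

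Vamp2, Olfm1 and Tspan7 were lowest in GDel1, with the mean of GDel2 between GDel1 and wildtype. Vamp2 (ENSMUSG00000020894, chr11:69088528-69092381) encodes synaptobrevin, the vesicle protein of the complex that drives membrane fusion. It was at 22.0, 21.8 and 22.4 CPM in wildtype, 10.9 and 13.3 in GDel1, and 16.4 and 16.3 in GDel2. No groups overlapped, and the log2 fold changes were -0.86 ± 0.12 in GDel1 and -0.43 ± 0.12 in GDel2. The value in GDel2 did not pass the threshold when any 1 wildtype or GDel2 library was left out, with adjusted p between 0.0675 and 0.103 (edgeR).

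Olfm1 (ENSMUSG00000026833, chr2:28193093-28230736) encodes a secreted olfactomedin glycoprotein of the nervous system. It was at 3.24, 2.41 and 3.31 CPM in wildtype, 0.724 and 1.04 in GDel1, and 2.21 and 2.10 in GDel2. GDel1 was 3.28-fold below wildtype (log2 fold change -1.71 ± 0.28), from 9 and 20 counts. GDel2 was just under the lowest wildtype library, with -0.47 ± 0.25, not past the threshold. Tspan7 (ENSMUSG00000058254, chrX:10485116-10596604) encodes a membrane protein with 4 passes, a tetraspanin found in neurons and other tissues. It was at 2.06, 2.10 and 2.57 CPM in wildtype, 0.483 and 0.416 in GDel1, and 2.21 and 1.30 in GDel2. GDel1 was 5.01-fold below wildtype (log2 fold change -2.32 ± 0.36), from 6 and 8 counts, and GDel2 overlapped wildtype, with 1 library inside its range and 1 below it.

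**Figure D2:**
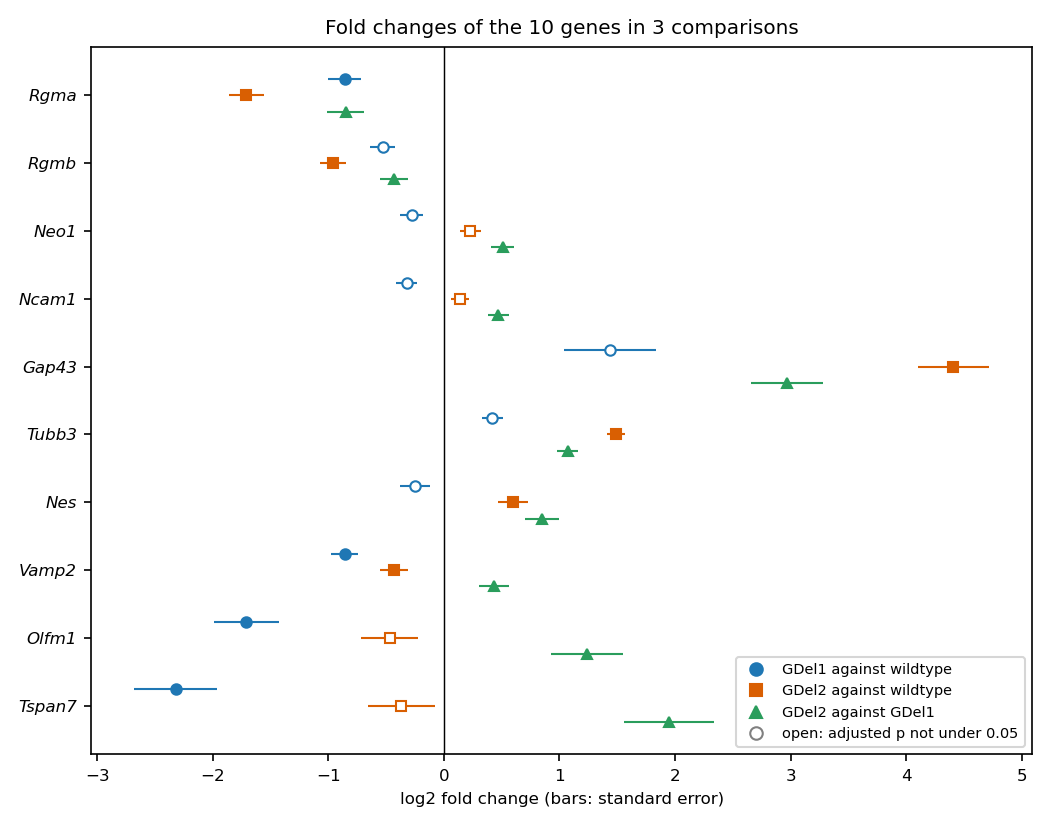
Log2 fold changes (horizontal axis, bars for standard errors) of the 10 genes in 3 comparisons, circles for GDel1 and squares for GDel2 against wildtype and triangles for GDel2 against GDel1, with filled symbols for an adjusted p under 0.05. Gap43 extends to 4.41 in GDel2 and Tspan7 to -2.32 in GDel1, and all 10 triangles are filled.

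The counts of members past the threshold are given beside the share of all genes and carry no weight of their own, since the genes were chosen with these contrasts known. In GDel1 against wildtype 4 of 10 passed, all lower (Rgma, Vamp2, Olfm1 and Tspan7), where 0.376% of all genes passed, 0.162% higher and 0.214% lower. Many genes lay near that threshold: 58 genes had an adjusted p under 0.05 and 465 under 0.06, with Rgma and Olfm1 at 0.0488 just inside and Rgmb at 0.0536 and Tubb3 at 0.055 just outside. The count of 4 became 0 without wildtype replicate 1, 2 or 3. Over all genes 4, 4 and 9 passed in those fits, against 58, so the drop was not particular to the members. In GDel2 against wildtype 6 passed, Gap43, Tubb3 and Nes higher and Rgma, Rgmb and Vamp2 lower, where 33.1% of all genes passed, 17.4% higher and 15.6% lower. In GDel2 against GDel1 all 10 passed, 8 higher and Rgma and Rgmb lower, where 27.7% of all genes passed, 14.8% higher and 12.8% lower. By DESeq2 the counts of members were 4, 5 and 7, with 3 members left without an adjusted p in GDel1 against wildtype, and those over all genes 993, 4029 and 3368 of 15421, against 58, 5099 and 4268 by edgeR. The count of 10 became 7 to 9 with 1 library left out. These comparisons share libraries, so they are not independent of one another.

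With GDel1 and GDel2 taken as 1 group of 4, 0 of 10 members passed, where 0% of all genes passed by edgeR, 2930 having an unadjusted p under 0.05 and 969 passing by DESeq2. Of the members, 6 had an unadjusted p under 0.05 and 4 passed by DESeq2. The log2 fold changes in that comparison ran from 3.57 ± 0.98 for Gap43 to -1.22 ± 0.25 for Rgma, and Neo1 and Ncam1, which lie on opposite sides of wildtype in GDel1 and GDel2, gave -0.01 ± 0.16 and -0.07 ± 0.15.

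The TPM values order some members differently, because they divide by effective length and are scaled to a fixed sum. On the log2(TPM + 1) scale the median of all genes moved by -0.37 in GDel1 against wildtype and by 0.29 in GDel2 against GDel1, and by -0.07 in GDel2 against wildtype. All-gene calls by limma on that scale then split into 33 higher and 3195 lower in GDel1 against wildtype, and 2726 higher and 309 lower in GDel2 against GDel1. Those fits also used a filter on TPM (at least 1 in 2 libraries) in place of that on counts, which left 12626 genes and 8 members, without Olfm1 and Tspan7. Of these 8, 6 were called in GDel2 against GDel1, all higher, and Rgma and Rgmb were not. Rgma was at 4.03, 3.39 and 4.55 TPM in wildtype, 1.38 and 1.86 in GDel1, and 1.99 and 1.29 in GDel2. Both deletion groups were below wildtype on both scales, but GDel2 and GDel1 overlapped by TPM, with a difference of 0.00. Its effective length was 2665, 2651 and 1924 bases in wildtype, 2375 and 2327 in GDel1, and 1437 and 1984 in GDel2, so 1 wildtype library was as short as GDel2. Rgmb, at 1.56 and 1.80 TPM in GDel1 and 1.56 and 1.57 in GDel2, also overlapped, with a log2(TPM + 1) difference of -0.06. The order of both genes between GDel1 and GDel2 was thus seen by CPM and not by TPM. Effective lengths of Rgmb overlapped between these groups, at 4525 and 4354 bases in GDel1 and 4698 and 4378 in GDel2. Both genes lay below the all-gene median of 0.29 on the log2(TPM + 1) scale in that comparison. The parts of length and of the fixed sum were not tested.

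**Figure D3:**
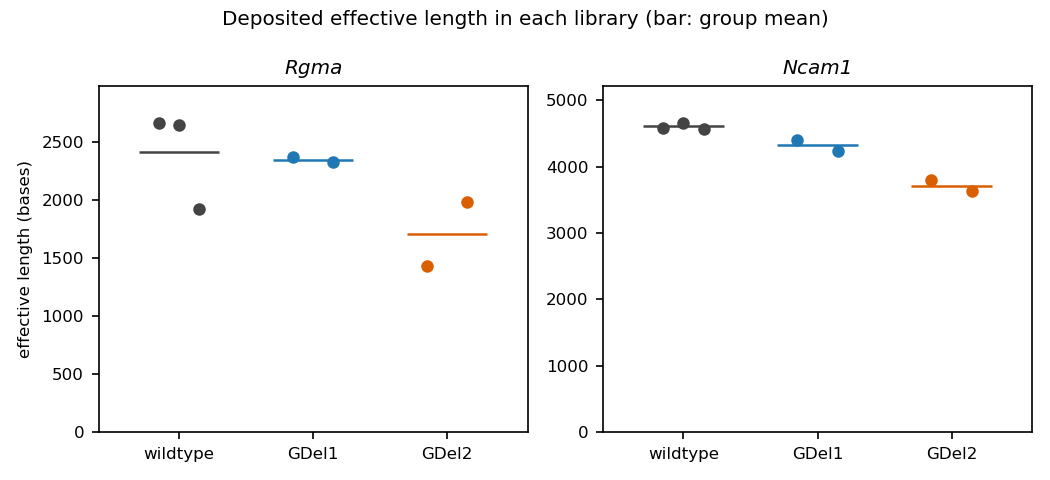
Deposited effective length in bases (vertical axes, from 0) of Rgma and Ncam1 in each library, with bars for group means. Ncam1 is shortest in GDel2 (3803 and 3627 bases) with no overlap, whereas the lengths of Rgma spread within wildtype (1924 to 2665 bases).

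Genes around the 10 were taken from 9 lists of related function, with 219 genes other than the members, of which 133 passed the filter. In GDel2 against wildtype 60 of the 133 (45.1%) changed, 30 higher and 30 lower, beside 33.1% of all genes. In GDel2 against GDel1 50 (37.6%) changed, 30 higher and 20 lower, beside 27.7%. By limma on log2(TPM + 1), where the TPM filter left 87 of the 133, the latter split was 24 higher and 3 lower. The medians over the lists were 0.00 and 0.21, against 0.01 and -0.01 for all genes. Leaving out chromosomes 6, 8, X and Y, 54 and 44 of 112 genes changed. The share of all genes was not computed under that exclusion. The shares of 33.1% and 27.7% include chromosomes 6 and 8, where 51.2% and 50.8% of genes were higher in GDel2 than in wildtype. In GDel1 against wildtype 0 of 133 passed by edgeR, with 35 at an unadjusted p under 0.05 and 2 passing by DESeq2. The count of 0 rose without GDel1 replicate 1 or replicate 2, and the 60 in GDel2 against wildtype fell without GDel2 replicate 2. Calls over all genes moved in the same direction in each of these fits, which leave 1 library in a group.

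Of the growth cone and neuronal cytoskeleton genes, 12 of 23 were higher in GDel2 than in wildtype and 3 lower, with a median log2 fold change of 0.56 (0.01 over all genes). Over all genes 17.4% were higher and 15.6% lower, a share that the 3 lower genes do not exceed. None of the 23 lies on chromosomes 6, 8, X or Y. The neurofilament-type proteins Ina and Nefh rose most with the tau gene Mapt. Ina, the alpha-internexin gene, was at 1.77, 2.78 and 2.63 CPM in wildtype, 2.66 and 3.38 in GDel1, and 21.5 and 17.9 in GDel2, 8.14-fold above wildtype (adjusted p = 2.84e-05). Nefh, the heavy neurofilament gene, was at 2.84 to 3.68 CPM in wildtype, 4.02 and 4.22 in GDel1, and 18.9 and 14.2 in GDel2 (4.96-fold, adjusted p = 6.25e-05). Mapt was at 3.31 to 3.77 CPM in wildtype, 2.98 and 5.78 in GDel1, and 16.2 and 16.7 in GDel2 (4.71-fold, adjusted p = 0.000216). In all 3 genes both GDel2 libraries were well above every other library. Nefh and Mapt lie on chromosome 11, where 285 of 1090 genes tested (26.1%) were higher in GDel2 than in wildtype and 153 lower. The median log2 fold change of that chromosome was 0.1, and its part in these values was not tested.

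The other rises of that list were in Crmp1, Dpysl3 and Dpysl2 of the collapsin response mediators, which carry semaphorin signals to microtubules, in the tubulins Tubb2a and Tuba1a, in Map1b, in Kif5c and in Marcks and Basp1, membrane proteins of growth cones like Gap43. Their log2 fold changes ran from 0.37 for Kif5c to 2.20 for Crmp1. The falls were Stmn3, a microtubule-destabilising stathmin, Kif5a, a kinesin motor, and Marcksl1. Stmn3 was at 7.42 to 9.29 CPM in wildtype, 14 and 14.8 in GDel1, and 2.13 and 1.81 in GDel2, with a log2 fold change of -2.13 ± 0.19 in GDel2 (adjusted p = 0.000102). Stmn2, Tubb2b, Stmn1, Nefl, Map2 and Dpysl5 did not pass, with log2 fold changes of -0.04, 0.08, 0.12, 0.05, -0.34 and -0.0. Map1a at 0.64 ± 0.24 and Nefm at 0.58 ± 0.24 did not pass either. The 12 rises became 9 without GDel2 replicate 1 or replicate 2, or without wildtype replicate 1 or replicate 2.

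**Figure D4:**
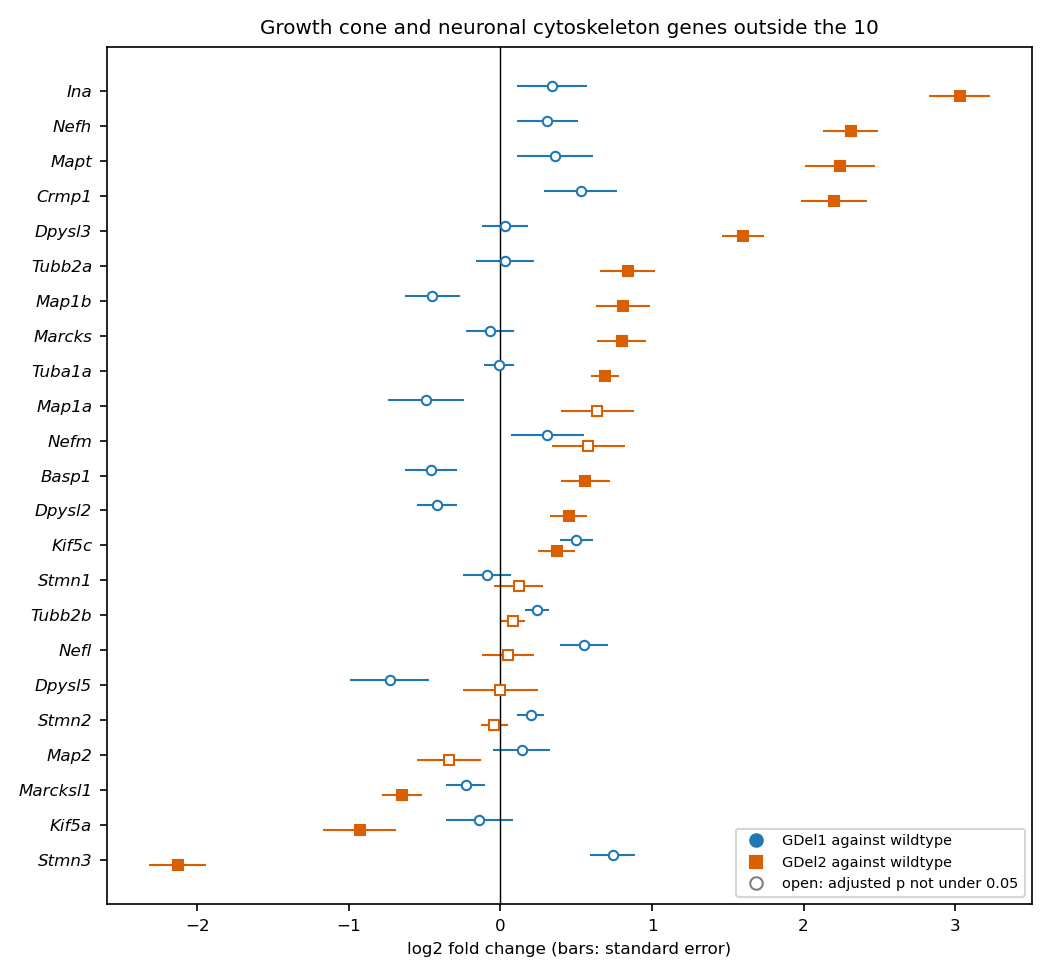
Log2 fold changes (horizontal axis, bars for standard errors) of the 23 growth cone and neuronal cytoskeleton genes other than the 10, in GDel1 and GDel2 against wildtype, with filled symbols for an adjusted p under 0.05. In GDel2 12 genes are filled to the right and 3 to the left, from 3.03 for Ina to -2.13 for Stmn3, and no GDel1 symbol is filled.

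Of 15 other genes listed with repulsive guidance molecules, neogenin and netrins, 6 were measured. The 3 that changed in GDel2 were lower: Unc5b, Ntn1 and Ntn3. That is 50% of only 6 genes, beside 33.1% of all genes called and 15.6% lower, and is given as a description. Unc5b, a repulsive netrin receptor that also pairs with neogenin, was at 42.0, 42.1 and 44.5 CPM in wildtype, 34.1 and 40.2 in GDel1, and 18.6 and 16.4 in GDel2 (log2 fold change -1.29 ± 0.11, adjusted p = 0.000107). Ntn1, the netrin-1 gene, was at 73.6 to 82.1 CPM in wildtype, 74.9 and 78.2 in GDel1, and 42.8 and 38.2 in GDel2 (-0.94 ± 0.10, adjusted p = 0.000213). Ntn3 had a log2 fold change of -0.95 ± 0.24. In both Unc5b and Ntn1 the GDel2 libraries were below every other library. Arhgef12, an exchange factor of the small GTPase RhoA downstream of such receptors, had -0.24 ± 0.08 and did not pass. Hjv (Hfe2) and Draxin of that list did not pass either, with 0.79 ± 0.40 and 0.03 ± 0.33. Hjv was at 1.26 and 1.52 CPM in GDel2 and 0.578 to 1.24 in wildtype, higher without overlap.

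Among other guidance ligands, 4 of 26 were higher in GDel2 than in wildtype and 7 lower, with a median of -0.18. The share called was 42.3%, beside 33.1% of all genes. The semaphorins, secreted or membrane-bound guidance proteins, were on both sides. Sema5b was at 2.73 to 3.24 CPM in wildtype and 18.2 and 11.6 in GDel2, 4.98-fold higher (adjusted p = 0.000283). Sema4a was at 3.40 to 3.94 CPM in wildtype and 12.2 and 10.9 in GDel2, also higher (adjusted p = 0.00022). Sema7a and Sema4b were lower, with log2 fold changes of -1.59 ± 0.27 and -0.87, as was the ephrin gene Efna4 with -1.08 ± 0.15. Of 19 guidance receptors 3 were higher and 3 lower, 31.6% and so near the share of all genes. Plxna2, a plexin that transmits semaphorin signals, was at 5.59 to 5.78 CPM in wildtype, 3.30 and 4.22 in GDel1, and 16.9 in both GDel2 libraries (adjusted p = 0.000111). Robo4 had 2.92 ± 0.36 from under 0.3 CPM in wildtype, and the ephrin receptor genes Epha7 and Ephb3 had -0.90 and -0.81.

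The families of the remaining members changed in both directions or in few genes. In GDel2 against wildtype 33.1% of all genes passed. Beside that share, 42.9% of the adhesion, 75% of the progenitor, 50% of the olfactomedin and 47.6% of the tetraspanin genes passed, most of them short lists. Of 7 neural adhesion genes, Nrcam was higher and Nfasc and Nlgn2 lower in GDel2. Of 4 progenitor genes, Sox1 (1.26 ± 0.22) and Pou3f3 (1.31) were higher and Prom1 (-0.66) lower, and Sox1 lies on chromosome 8. Of 25 synaptic vesicle and exocytosis genes 3 were higher and 5 lower, 32.0% and again near the share of all genes, with Syt11 at 1.80 ± 0.20 and Unc13b, which primes vesicles, at -0.90 ± 0.11. Of the relatives of Vamp2, Vamp1 was 0.98 ± 0.18 higher in GDel2 than in GDel1, while Vamp3 was -0.52 ± 0.11. Vamp1 lies on chromosome 6, where 311 of 658 genes tested (47.3%) were higher in that comparison, with a median of 0.45. The part of that chromosome was not tested. Of 2 olfactomedin genes measured besides Olfm1, Olfml1 was lower in GDel2, at 0.158 and 0.0723 CPM against 1.10 to 1.30 in wildtype, and Olfml3 (-0.78 ± 0.33) did not pass. Of 21 tetraspanin genes 5 were higher and 5 lower, with Tspan6 at 1.01 ± 0.20 and Tspan2 at -1.47 ± 0.25. Tspan6 lies on chromosome X. Off chromosomes 6, 8, X and Y, 6 of 16 tetraspanin genes passed, 2 of them higher. The part of those chromosomes was not tested. Nrcam and Pou3f3 are named to complete counts and were picked after their values were seen.

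**Figure D5:**
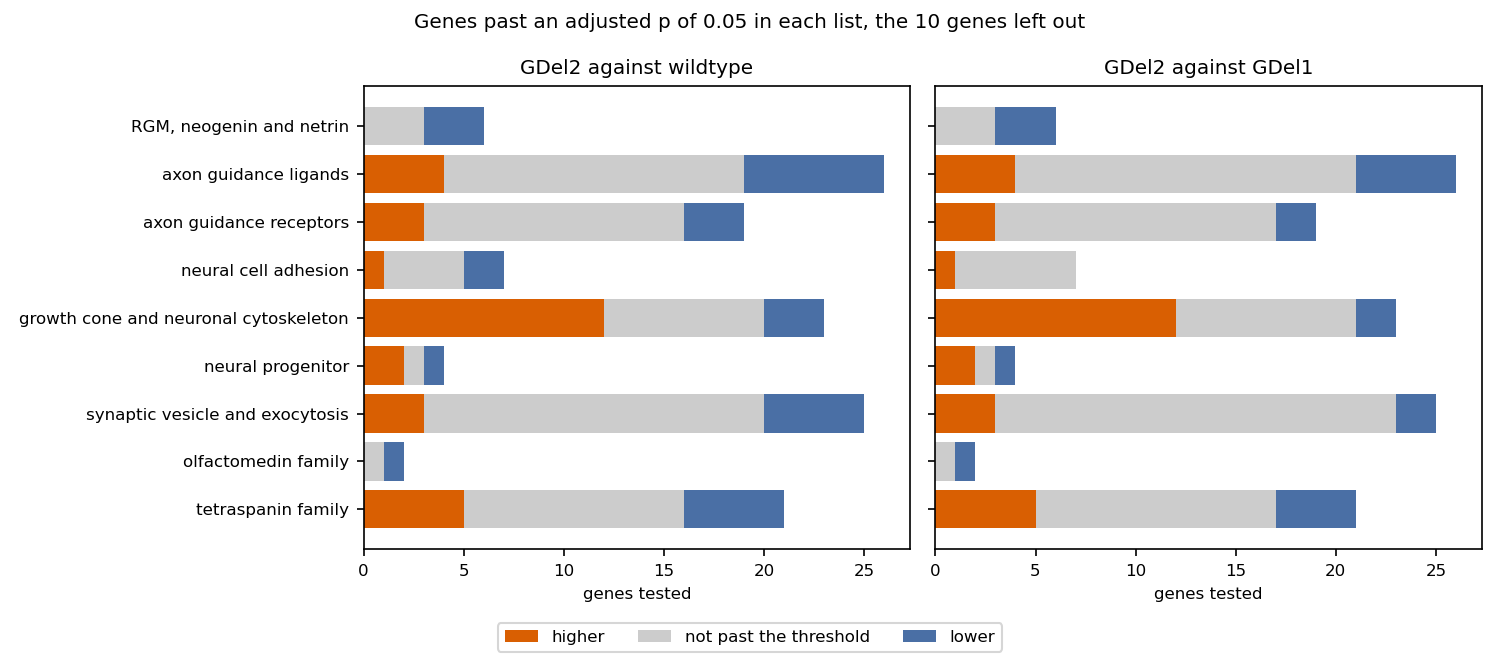
Number of genes tested (horizontal axis) that were higher, lower or not past an adjusted p of 0.05 in each of 9 lists, the 10 members left out, for GDel2 against wildtype and GDel2 against GDel1. The growth cone and neuronal cytoskeleton list has 12 genes higher in each panel, against 3 lower and 2 lower.

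Genes whose profile over the 7 libraries was most like a member were sought for the 3 members of widest range, among 12233 genes with a mean of at least 2 CPM. Gap43 was closest to Dtx1 (Pearson r = 0.996), Emb (0.996) and Shq1 (0.994), Tspan7 to Gm37736 (0.986), Peg10 (0.984) and Ncoa1 (0.983), and Olfm1 to Arfgef1 (0.977), Myh9 (0.976) and Slc1a1 (0.975). These are descriptions over 7 libraries in 3 groups, which any gene set apart in the same group shares.

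Markers of other cells differed between GDel2 and wildtype as well. In GDel1 against wildtype 0 markers of any list passed by edgeR, beside 0.376% of all genes. Sums of TPM in GDel1 are to be read beside the all-gene median of -0.37 against wildtype on the log2(TPM + 1) scale. Of 7 neuron markers tested, Elavl3 and Elavl4 were higher in GDel2 than in wildtype (log2 fold changes 1.28 and 1.63), at no more than 0.83 and 0.97 TPM. The other 5 did not pass, with 0.73 for Neurod1, -0.30 for Syn1, -0.34 for Map2, -0.66 for Slc17a7 and -0.34 for Gad1, and the summed levels of the list in GDel2 and wildtype overlapped. Of the pluripotency markers, Zfp42 (1.15) and Nanog (0.40) were higher and Dppa5a (-0.81), Tfcp2l1 (-0.81), Sox2 (-0.40) and Esrrb (-0.36) lower. The mesoderm list summed to 4.02 to 4.74 TPM in GDel2 and 1.44 to 1.57 in wildtype, with Eomes at 2.75 and 3.53 against 0.85 to 0.89 TPM and Mixl1 at no more than 0.69 TPM. The fibroblast list summed to 1.17 to 1.67 TPM in wildtype, 0.64 to 0.67 in GDel1 and 2.29 to 2.83 in GDel2. Thy1 was higher in GDel2 (1.42), and Pdgfrb at -0.14 and Col1a1 at -0.40 did not pass the threshold. The endoderm list summed to 0.91 to 1.36 TPM in wildtype, 0.73 to 0.99 in GDel1 and 2.01 to 3.04 in GDel2, with Cxcr4 (1.32) and Gata4 (1.39) higher. The glia markers Mbp (-2.30) and Aldh1l1 (-0.71) were lower in GDel2 than in wildtype, at no more than 0.95 and 2.10 TPM, and Gfap, Aqp4, S100b, Olig1, Sox10 and Mog were at no more than 0.45 TPM. Their part in the values of the 10 genes was not tested.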

How the data were processed

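RNA-Seq tables of 7 libraries were analysed, and the other 59 of 66 samples were not analysed here. Per the labels' protocols, ribosomal RNA was depleted and libraries were made with a directional kit. The sources used here do not give the strand setting of the counting. The submitters' processing notes name STAR, RSEM and the mm10 build, without versions. The deposited tables hold RSEM expected counts per gene, unscaled for depth. They also hold TPM, which the authors scaled per effective length to a fixed sum, deposited FPKM values, which were not used, and deposited lengths in bases.

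Expected counts were rounded. The filterByExpr function of edgeR (minimum count 10, minimum total 15) kept 15421 of 27470 genes with a count, holding 99.9% of counts. Contrasts came from 1 fit of the 3 groups, and a second fit set the 4 deletion libraries against wildtype, both in edgeR 4.0.16 (R 4.3.3) by its robust quasi-likelihood F test after TMM scaling. P-values were adjusted by Benjamini-Hochberg over all genes tested, at a threshold of 0.05. CPM are on the TMM library size, and adjusted p-values are those of edgeR unless DESeq2 1.42.0 or limma 3.58.1 is named. The scripts were tested on simulated data. Symbols came from a table of gene names that matched 55141 of 55487 identifiers, and positions from RefSeq (GRCm38.p6) by symbol. In that table lncRNA genes overlap Rgma and Ncam1, with 2 counts (A730056A06Rik) and 1 count (Gm11149) over the 7 libraries, and a miRNA gene with 0 counts overlaps Gap43. A further RefSeq lncRNA locus overlapping Rgma was not used here.

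The members and lists were chosen with earlier results of these data known. Named genes are the 10 members and Praf2. From each list, up to 3 rises and 3 falls per comparison were eligible if past the threshold, at 2 CPM or more in the higher group and without overlap, and otherwise the 2 genes of highest TPM. The 3 closest profiles of 3 members and 2 genes per marker list complete the rule, and other genes complete counts. The summed level of the glia marker list is not reported here. Alternatives were DESeq2, other size factors, other filters on low counts, limma on log2(TPM + 1) and log2(TPM + 0.1), a replicate block, only the 2 groups compared, and each replicate left out.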

Additional observations from a re-analysis of the deposited data

Results flagged for a closer look

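All 10 members differed between GDel2 and GDel1 by the contrast of the 2 groups, which share a genotype label. The log2 differences, GDel2 minus GDel1, were -0.85 for Rgma, -0.43 for Rgmb, 0.51 for Neo1, 2.97 for Gap43, 1.07 for Tubb3, 0.47 for Ncam1, 0.85 for Nes, 0.43 for Vamp2, 1.24 for Olfm1 and 1.95 for Tspan7. In that contrast 27.7% of all genes passed, and the members were chosen with it known. The difference of Rgma was 0.00 on the TPM scale. No library stood apart by Dixon's criterion in any of the 10 members over the 4 deletion libraries. In a uniform group chance flags about 1 of 20. Here the check pooled GDel1 and GDel2, which differed without overlap in all 10 members. It could therefore hardly flag a single library, and no conclusion is drawn from it.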

How the results depend on the processing

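Of 614 recomputed fold changes of the members, 494 kept their direction and side of the threshold, 79 lost it, 28 gained it and 13 changed sign; the cause was not tested. In GDel1 against wildtype, the 4 members called became 7 with no filter (2357 of all genes called, against 58), 1 with a stricter filter, 0 with only the 2 groups compared, 8 without GDel1 replicate 1 and GDel2 replicate 2 (the libraries with most mitochondrial reads; 4262 of all genes called), and 0 to 6 with 1 library left out. A deletion group left with 1 library is assumed to vary like the other groups, and without that pair the spread comes from wildtype alone. Calls over all genes in GDel1 against wildtype were 34 with the stricter filter and 12 with only the 2 groups compared. They were 4, 4 and 9 without wildtype replicate 1, 2 or 3. The limma fits also changed the filter, to TPM, and tested 8 members and 87 list genes. The 0 list genes became 2 by DESeq2, 23 with no filter, 23 by limma with either TPM pseudocount (all lower), 24 without that pair, and 0 to 14 with 1 library left out. In GDel2 against wildtype, the 60 list genes became 30 (limma, TPM + 1) or 27 (TPM + 0.1), and 33 to 70 with 1 left out. In GDel2 against GDel1, the 10 members became 6 and 6 of 8 tested by limma on TPM and 4 with only the 2 groups, and the 50 list genes 27, 27 and 33. For the deletion group, DESeq2 called 4 members and 11 list genes. With a replicate block, counts became 0 members in GDel1 against wildtype, 33 list genes in GDel2 against wildtype, and 5 members and 32 list genes in GDel2 against GDel1. Deviations of same-numbered libraries from their group means had correlations from -0.208 to 0.104. In groups of 2 the deviations mirror each other, so these values cannot decide whether the numbers pair libraries. A crossed pairing of GDel1 and GDel2, chosen after seeing the data, called 7 members and 49 list genes. The sign changed for Tubb3 in GDel1 by TPM (-0.21 and -0.22), for Rgma in GDel2 against GDel1 by TPM (0.00 with both pseudocounts), and in the deletion group for Nes by TPM (-0.01 and -0.04) and Ncam1 without GDel1 replicate 1 (0.00, with -0.16 as the other end of its leave-one-out range). Neo1 in that group, at -0.01, became 0.01 with a stricter filter, 0.06 without that pair of libraries, and -0.10 to 0.10 with 1 library left out, changing sign without wildtype replicate 1 (0.00), wildtype replicate 2 (0.01), GDel1 replicate 1 (0.10) or GDel1 replicate 2 (0.04). The 15 growth cone and cytoskeleton genes called in GDel2 against wildtype, recomputed after seeing that count, stayed between 10 and 16. Gap43, Tspan7 and Olfm1 are limited by depth in the groups where they have 20 counts or fewer.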
